A study of Homo sapiens with 20 samples.

Results

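The genes described here are 38 named genes of DNA repair and of the DNA damage checkpoint, followed across 3 microarray experiments on the human prostate cancer lines LNCaP and C42B, a castration-resistant derivative of LNCaP. They were taken by symbol, and every probe set whose annotation named exactly 1 of those symbols was used. Such probe sets were found for 35 of the 38 genes, which are 35 of 19775 genes measured in the same way, and BRCA2, FANCA and FANCD2 are not analysed here. The brightest probe set stood for each gene. It was the only one for 14 of the genes, and the other 21 had up to 6, which served as a check.

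The study lowered LSD1, a histone lysine demethylase encoded by KDM1A, with siRNA in both lines, and separately gave C42B cells an androgen. C42B cells received siRNA against LSD1 (siLSD1, 3 arrays) or the control labelled siNTC (3 arrays) for 6 h and then spent 96 h in RPMI medium with 10% charcoal-stripped serum, a serum depleted of steroids. LNCaP cells received siLSD1 (3 arrays) or siNTC (3 arrays) at 50 nM and spent 96 h in 10% fetal bovine serum, and RNA of 2 wells was pooled for each replicate. For the androgen experiment, C42B cells were kept for 72 h in charcoal-stripped serum and then received 100 nM dihydrotestosterone (DHT, 4 arrays) or its ethanol vehicle (4 arrays) for 16 h. The labels name 1 siLSD1 reagent, so a difference between siRNA sequences could not be examined. They describe replicates as wells and do not say whether these came from independent cultures, so the p-values reflect only the spread among the arrays, which may be technical.

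Cells meet a DNA double-strand break mainly in 2 ways. Homologous recombination trims the ends and copies the sister chromatid, which limits it to cells that have replicated their DNA, while end joining seals the ends directly at any time in the cell cycle. The Fanconi anaemia genes handle crosslinks between the strands, excision and mismatch repair replace damaged or mispaired bases, and the checkpoint kinases ATM, ATR, CHEK1 and CHEK2 hold the cell cycle while repair proceeds. Many homologous recombination and Fanconi genes are transcribed mainly in cycling cells, and in prostate cancer some repair genes are known to respond to the androgen receptor.

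Levels are given as log2 of the deposited fluorescence intensity, and changes as differences of log2 means with their standard errors (SE). A change passed, or was called, when limma's moderated test gave an adjusted p under 0.05 (Benjamini-Hochberg, over all 19775 genes). A group mean of at least 6 was called bright. Where probe sets of 1 gene are set side by side, bright means a mean of at least 6 over all 20 arrays. Array medians of the deposited intensity separated by experiment (78.4 to 81.2 for siRNA in C42B, 63.3 to 65.1 for LNCaP, 84.1 to 86.1 for androgen), so levels were compared only within an experiment. All 7 measured luminal prostate markers were bright in all 6 groups, with group means from 7.64 to 14.07. Of the other cell types, at most 1 of 2 basal, 2 of 5 stromal, 2 of 3 endothelial and 2 of 4 leukocyte markers were bright in any group. KDM1A, the siRNA target, read 8.03, 7.83 and 7.80 in siLSD1 C42B arrays, against 10.29, 10.36 and 10.21 in siNTC arrays, and 7.26, 7.40 and 7.25 in siLSD1 LNCaP arrays, against 9.95, 10.05 and 10.23 in siNTC arrays. These are decreases of 81.1% and 85.4% in the intensity, and the exact two-sided permutation p was 0.1 for both, which is the lowest value 3 arrays against 3 can give.

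In C42B cells, 21 of the 35 repair genes fell with siLSD1, 1 rose and 13 had no call. The median change was -0.26, against -0.017 over all genes. Of all genes, 9.39% passed as lower and 8.66% as higher, and among genes bright in a group those shares were 12.6% and 11.6%. The arrays of the 2 groups did not overlap for 25 of the genes, 23 lower and 2 higher, while 19.9% of all genes were separated downward and 16.3% upward. Proliferation markers moved in the same direction: 15 of 20 listed genes such as MKI67, TOP2A and PCNA passed as lower, and their median change was -0.43. Their part in the result was not tested, and in bulk RNA fewer cycling cells and less of these RNAs per cell cannot be told apart.

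The homologous recombination genes held the largest falls in C42B. Of the 12 measured, 8 passed as lower and 0 as higher (1, XRCC2, was higher at limma's unadjusted p under 0.05), and their median change was -0.33. EXO1, an exonuclease that trims broken ends and also serves mismatch repair, read 7.66, 7.58 and 7.62 in siLSD1 arrays, against 8.15, 8.34 and 8.33 in siNTC arrays (-0.66 ± 0.066, adjusted p = 0.001). BRIP1, a DNA helicase that binds BRCA1, read 7.42, 7.38 and 7.53 with siLSD1, against 8.13, 8.10 and 7.87 with siNTC (-0.59 ± 0.082, adjusted p = 0.0034). RAD54L, a motor protein that moves along DNA during recombination, read 8.09, 7.94 and 7.95 with siLSD1, against 8.49, 8.53 and 8.55 with siNTC (-0.53 ± 0.058, adjusted p = 0.0014). In each of these genes every siLSD1 array lay below every siNTC array, and the fall was several times the SD within a group. RAD54B, a relative of RAD54L, read 8.43, 8.51 and 8.43 with siLSD1 and 8.79, 8.87 and 8.86 with siNTC (-0.38 ± 0.053, adjusted p = 0.0033). RAD51AP1 (-0.38 ± 0.082), PALB2 (-0.35 ± 0.070), BRCA1 (-0.31 ± 0.067) and BLM (-0.20 ± 0.052) also passed as lower. RAD51AP1 promotes pairing with the intact DNA, PALB2 bridges BRCA1 to BRCA2, and BLM is the helicase lost in Bloom syndrome. BARD1, the partner of BRCA1 in a ubiquitin ligase, changed by -0.13 ± 0.052 (adjusted p = 0.15), and the recombination genes XRCC2, XRCC3 and RAD51C by 0.23, -0.11 and 0.018, none of them passing.

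**Figure D1:**
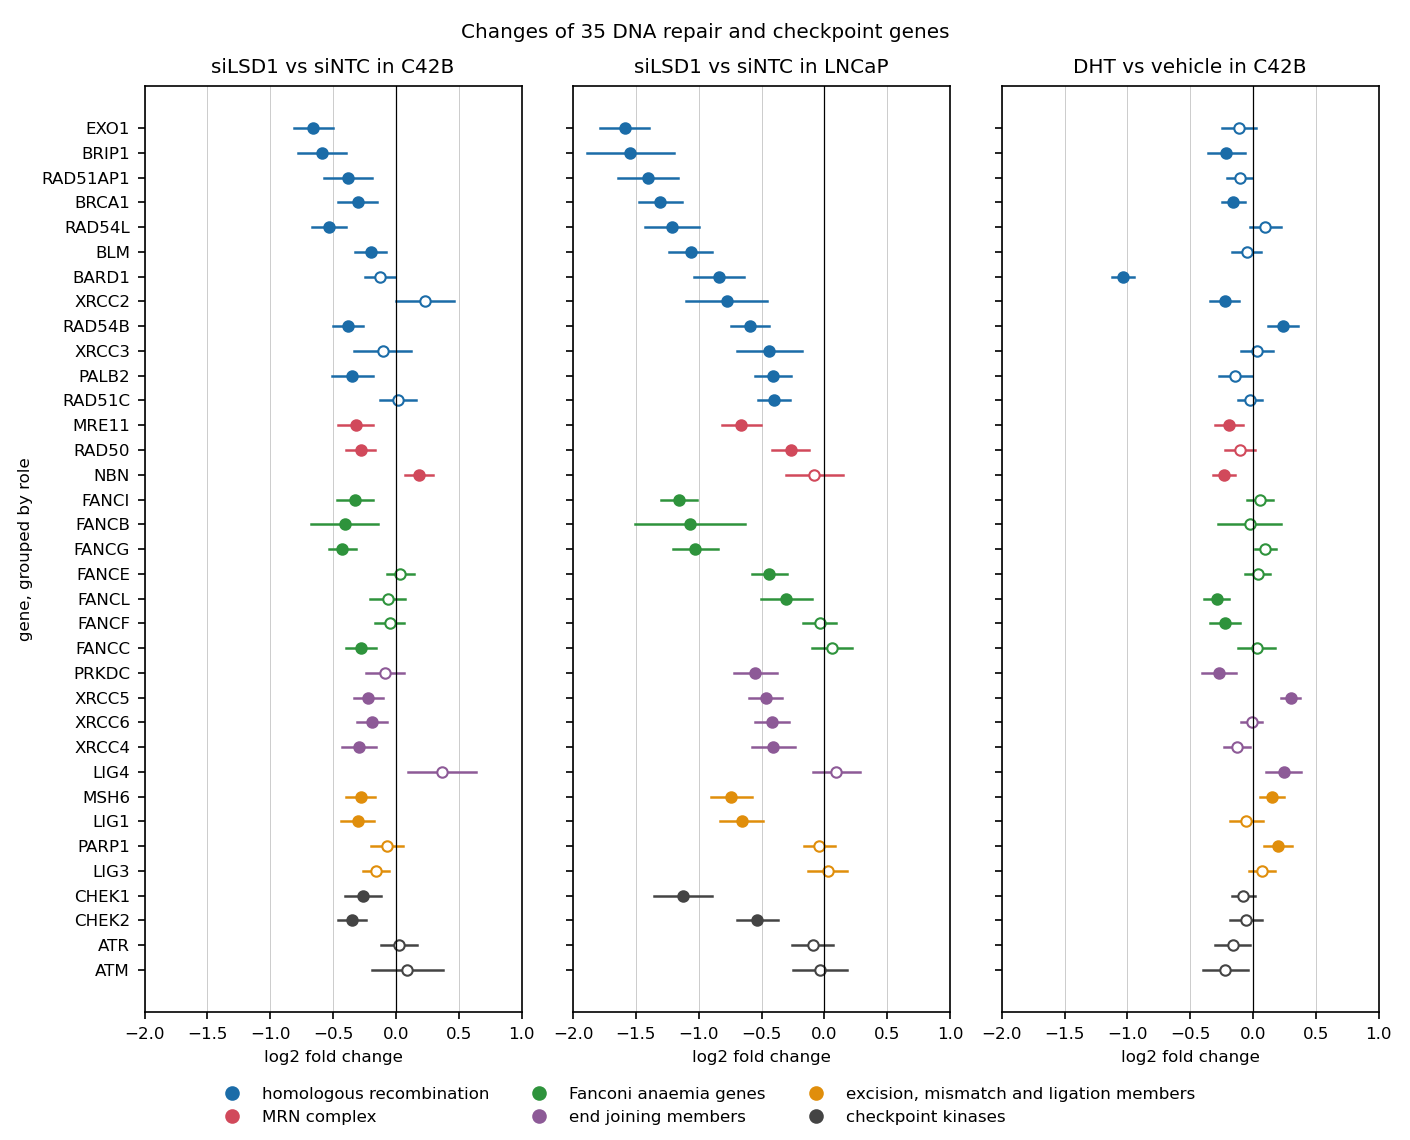
Log2 fold change (x axis) of the 35 repair and checkpoint genes (y axis, grouped by role) for siLSD1 over siNTC in C42B, siLSD1 over siNTC in LNCaP and DHT over vehicle in C42B. Points are limma estimates and bars their 95% confidence intervals, and filled points passed at an adjusted p under 0.05. Filled points lie left of 0 for 21 genes in C42B and 27 in LNCaP with siLSD1, and for 9 with DHT, where BARD1 stands apart.

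The 3 genes of the MRN complex, which binds broken ends first, did not move together in C42B. MRE11, its nuclease, fell (-0.32 ± 0.060, adjusted p = 0.011) and so did RAD50, its ATPase (-0.28 ± 0.050, adjusted p = 0.0084). Of the 3 bright probe sets of RAD50 only 1 passed, and their changes ran from -0.28 to 0.023. NBN, the subunit that recruits ATM, was the only one of the 35 genes to pass as higher. It read 10.84, 10.84 and 10.82 in siLSD1 arrays, against 10.68, 10.62 and 10.63 in siNTC arrays (0.19 ± 0.047, adjusted p = 0.032). The 2 groups did not overlap, but the call was lost when any 1 of the 6 arrays was left out, with adjusted p of 0.053 to 0.11.

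Of the 7 Fanconi genes, 4 passed as lower in C42B. FANCG, a subunit of the Fanconi core complex, read 8.91, 8.91 and 8.89 with siLSD1, against 9.35, 9.32 and 9.32 with siNTC (-0.43 ± 0.045, adjusted p = 0.0012). FANCB, another core subunit, read 4.96, 4.78 and 4.77 with siLSD1, against 5.03, 5.23 and 5.47 with siNTC (-0.41 ± 0.11, adjusted p = 0.045). FANCB was dim in both groups, a range in which arrays resolve changes poorly. FANCI, which is modified by the core complex together with FANCD2, changed by -0.32 ± 0.061, and FANCC, a core subunit, by -0.28 ± 0.050, both passing. FANCE, FANCF and FANCL changed by 0.036, -0.050 and -0.065 and did not pass.

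Among the 5 end joining genes, XRCC4 (-0.30 ± 0.058, adjusted p = 0.013), XRCC5 (-0.22 ± 0.050, adjusted p = 0.021) and XRCC6 (-0.19 ± 0.050, adjusted p = 0.037) fell in C42B. XRCC5 and XRCC6 form the Ku ring that holds a broken end, and XRCC4 supports the ligase LIG4. LIG4 itself read 8.23, 8.42 and 8.47 with siLSD1, against 8.15, 8.12 and 7.76 with siNTC, all siLSD1 arrays above all siNTC arrays, but it did not pass (0.36 ± 0.12, adjusted p = 0.07). PRKDC, the catalytic subunit of the DNA-dependent kinase, changed by -0.084 (adjusted p = 0.43) on its brightest probe set and fell on the other bright one, by 0.37 (adjusted p = 0.0061). MSH6, which recognises mispaired bases, and LIG1, the ligase that joins replicated DNA, fell by 0.28 and 0.30, while PARP1, a sensor of strand breaks, and LIG3, a ligase of single-strand break repair, did not pass (-0.070 and -0.16). CHEK2 (-0.35 ± 0.048, adjusted p = 0.0032) and CHEK1 (-0.26 ± 0.061, adjusted p = 0.025), the kinases that act downstream of ATM and ATR, fell. ATM (0.091 ± 0.12) and ATR (0.026 ± 0.061) did not pass. The calls of BLM and XRCC6 were lost when any 1 of the 6 arrays was left out (adjusted p 0.055 to 0.13 and 0.065 to 0.12). That of XRCC5 was lost for every array but siLSD1 replicate 1 (0.05 to 0.086). BRCA1 lost its call without siLSD1 replicate 2 or 3 or siNTC replicate 1 or 2 (0.051 to 0.058), CHEK1 without siLSD1 replicate 1 or 3 or siNTC replicate 1 or 2 (0.052 to 0.097), and FANCB without siLSD1 replicate 2 or 3 or siNTC replicate 2 or 3 (0.096 to 0.14). PALB2 lost it without siNTC replicate 1 or 3 (0.052 to 0.053), RAD51AP1 without siNTC replicate 1 or 2 (0.06 to 0.065), and XRCC4 without siLSD1 replicate 3 (0.051).

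In LNCaP cells, 27 of the 35 genes fell with siLSD1, 0 rose and 8 had no call, and 0 were higher at an unadjusted p under 0.05 in the same limma fit. The median change was -0.54, against 0.011 over all genes. Of all genes, 12.5% passed as lower and 13.4% as higher, and among genes bright in a group 18.5% and 19.0%. For 28 of the repair genes every siLSD1 array lay below every siNTC array, a separation seen downward in 19.5% of all genes. All 20 proliferation markers passed as lower, with a median change of -1.09 and a range of -1.62 to -0.67, and as in C42B their part in the result was not tested.

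All 12 homologous recombination genes fell in LNCaP, with changes of -1.59 to -0.40 and a median of -0.95. EXO1 read 6.78, 6.58 and 6.74 in siLSD1 arrays, against 8.34, 8.39 and 8.14 in siNTC arrays (-1.59 ± 0.085, adjusted p = 1.4e-05), in which the intensity fell by 66.8%. BRIP1 read 6.27, 6.86 and 6.82 with siLSD1, against 8.06, 8.29 and 8.24 with siNTC (-1.54 ± 0.15, adjusted p = 0.00018). Replicate 1 was the lowest siLSD1 array for BRIP1, and all 3 lay more than 1 unit under the lowest siNTC array. RAD51AP1 read 8.90, 9.02 and 9.10 with siLSD1, against 10.19, 10.57 and 10.47 with siNTC (-1.40 ± 0.10, adjusted p = 4.4e-05). BRCA1, which directs broken ends towards recombination, read 7.72, 7.73 and 7.95 with siLSD1, against 9.10, 9.13 and 9.09 with siNTC (-1.31 ± 0.074, adjusted p = 1.6e-05). RAD54L read 7.33, 7.33 and 7.06 with siLSD1, against 8.41, 8.37 and 8.59 with siNTC (-1.22 ± 0.093, adjusted p = 5.3e-05). Every one of these genes separated the groups completely, and the smallest of these falls exceeded the largest fall of any of the 35 genes in C42B. BLM (-1.07 ± 0.075), BARD1 (-0.84 ± 0.087), XRCC2 (-0.78 ± 0.14), RAD54B (-0.59 ± 0.065), XRCC3 (-0.44 ± 0.11), PALB2 (-0.41 ± 0.062) and RAD51C (-0.40 ± 0.056) made up the rest.

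**Figure D2:**
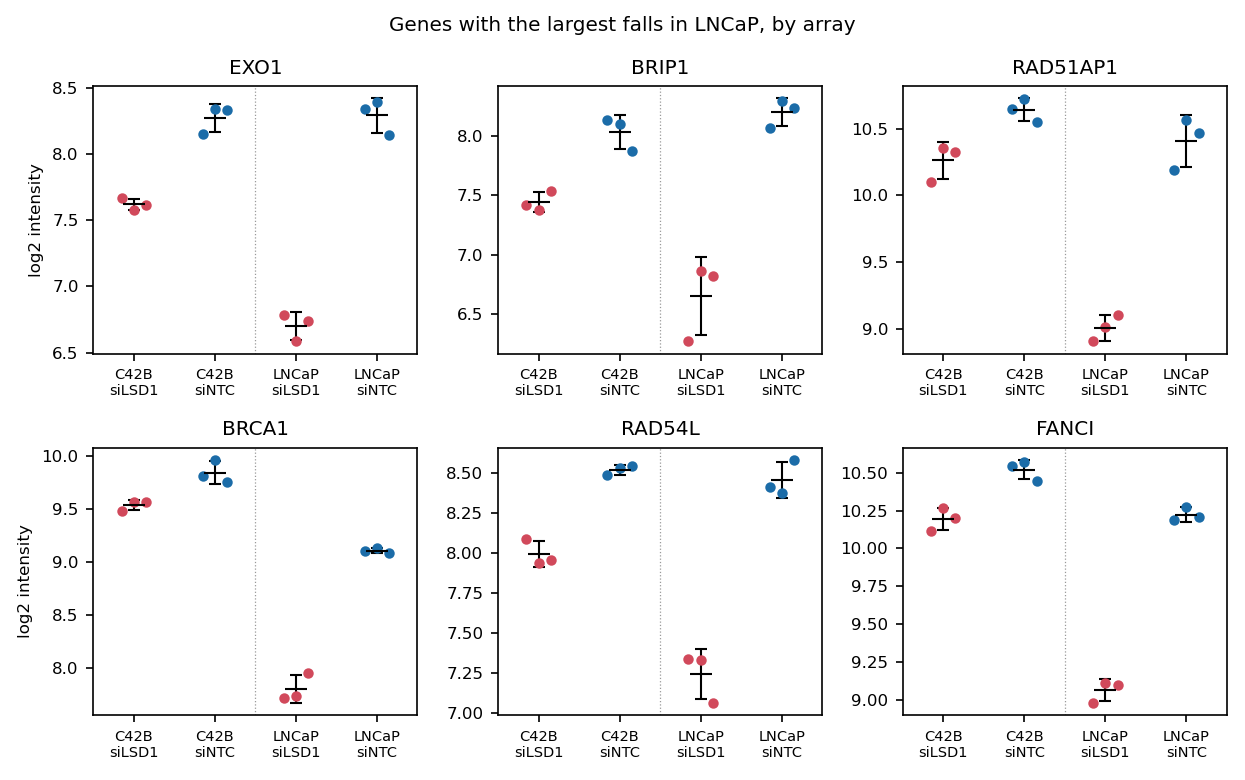
Log2 intensity (y axis, a separate range for each gene) of EXO1, BRIP1, RAD51AP1, BRCA1, RAD54L and FANCI in every siLSD1 (red) and siNTC (blue) array of C42B and LNCaP, with the mean and SD of 3 arrays in black. The siLSD1 arrays lie below the siNTC arrays in both lines for all 6 genes, with wider gaps in LNCaP, and the dotted line separates experiments whose levels are not compared.

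Among the genes of other roles, FANCI had the largest fall in LNCaP. It read 8.98, 9.11 and 9.10 with siLSD1, against 10.19, 10.28 and 10.21 with siNTC (-1.16 ± 0.062, adjusted p = 1.4e-05). FANCB (-1.07 ± 0.19, dim in both groups), FANCG (-1.03 ± 0.079), FANCE (-0.44 ± 0.061) and FANCL (-0.30 ± 0.087), the ubiquitin ligase subunit, also fell, while FANCF (-0.037) and FANCC (0.057) did not pass. In the MRN complex, MRE11 (-0.66 ± 0.067) and RAD50 (-0.27 ± 0.064) fell and NBN (-0.080 ± 0.098) did not pass. Again only 1 of the 3 bright probe sets of RAD50 passed, with changes of -0.27 to 0.044 among them. PRKDC, XRCC5, XRCC6 and XRCC4 fell by 0.55, 0.47, 0.42 and 0.41, and LIG4 changed by 0.094 without passing. MSH6 fell by 0.74 and LIG1 by 0.66, while PARP1 and LIG3 lay at -0.040 and 0.027. CHEK1 fell by 1.13 and CHEK2 by 0.54, and ATM (-0.038) and ATR (-0.093) did not pass. FANCL lost its call without siLSD1 replicate 1 or 2 or siNTC replicate 2 or 3 (adjusted p 0.089 to 0.11), XRCC3 without siLSD1 replicate 2 or 3 or siNTC replicate 2 (0.067 to 0.082), and RAD50 without siLSD1 replicate 1 (0.056).

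Promoters are shown for genes that fell in both lines, to let the letters be read beside the values. RefSeq sequence (GRCh38.p14) of the 250 bases before the transcription start was given for 30 of the 35 genes and for 27305 genes in all, and 4 kinds of motif tied to cell cycle or androgen control were searched on both strands. LIG1 was the gene with the largest LNCaP fall among those with an E2F-type motif, and BRIP1 and RAD51AP1 were picked after their values were seen, for their large falls. Capitals mark an E2F-type motif in LIG1, CCAAT read on the other strand (ATTGG) in RAD51AP1, and in BRIP1 a CHR-type motif read on the other strand (TTCAAA) and 3 copies of ATTGG.
LIG1, GRCh38.p14 chr19:48170345-48170594, minus strand: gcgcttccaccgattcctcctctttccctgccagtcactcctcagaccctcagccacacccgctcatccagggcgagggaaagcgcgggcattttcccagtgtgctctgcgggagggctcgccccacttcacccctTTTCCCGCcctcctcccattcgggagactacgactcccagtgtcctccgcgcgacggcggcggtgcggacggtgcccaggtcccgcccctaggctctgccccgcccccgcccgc
BRIP1, GRCh38.p14 chr17:61863529-61863778, minus strand: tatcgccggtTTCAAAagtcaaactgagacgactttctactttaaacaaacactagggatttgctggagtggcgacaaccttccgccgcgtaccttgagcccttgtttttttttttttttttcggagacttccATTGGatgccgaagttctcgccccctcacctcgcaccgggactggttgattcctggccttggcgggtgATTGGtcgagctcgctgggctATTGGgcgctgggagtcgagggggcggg
RAD51AP1, GRCh38.p14 chr12:4538640-4538889, plus strand: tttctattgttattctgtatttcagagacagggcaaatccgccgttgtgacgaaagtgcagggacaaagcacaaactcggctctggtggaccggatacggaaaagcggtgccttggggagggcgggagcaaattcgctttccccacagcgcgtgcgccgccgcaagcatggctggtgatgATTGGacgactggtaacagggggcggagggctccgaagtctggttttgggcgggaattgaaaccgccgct

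The E2F-type letters searched were TTTGGCGC, TTTCGCGC, TTTCCCGC and TTTGCCGC, and 2 of the 30 promoters held one (FANCC and LIG1), which is 6.67% against 3.4% of all promoters. In LIG1 the match ran from base -114 to base -107 before the start. CHR-type letters (TTTGAA or TTCGAA) were in 3 promoters (BRIP1, FANCC and ATM), 10.0% against 17.2% of all. The CCAAT letters were in 15 of the 30 (50.0%) against 37.0% of all promoters, namely BRCA1, BRIP1, PALB2, RAD51AP1, RAD54L, XRCC3, BLM, MRE11, FANCF, XRCC6, LIG4, MSH6, ATM, CHEK1 and CHEK2. Of these, FANCF, LIG4 and ATM had no call with siLSD1 in either line on their brightest probe sets. In BRIP1 they began at bases -117, -49 and -28, and no 2 of the matches marked above overlap. The androgen response letters AGAACA were in the promoters of LIG4 and PARP1, 6.67% against 14.8% of all. A match describes these letters and no more, and its absence says only that they are not in this window.

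The siLSD1 effect lay higher in C42B than in LNCaP for 30 of the 35 genes, and for 18 of them this difference passed the test. Over the 35 genes the 2 effects had a Pearson correlation of 0.68 and a Spearman correlation of 0.67, given as a description across genes that share a probe set in both experiments and are not independent. The genes that passed as lower in both lines numbered 20, which is 20 of the 21 lower in C42B and 20 of the 27 lower in LNCaP, while 5.64% of all genes passed as lower in both. In 19 of the 20 the fall was larger in LNCaP, the exception being RAD50 (-0.28 in C42B and -0.27 in LNCaP). The difference between the effects, C42B minus LNCaP, had a median of 0.34 over the 35 genes. Those 18 passed as positive and 1 passed as negative, where 5.56% of all genes passed as positive and 6.07% as negative, and 7.51% and 7.87% of genes bright in a group. All 20 proliferation markers passed as positive in the same test, with a median of 0.74. The lines also differed in serum, transfection protocol and pooling of wells, so line and culture condition cannot be told apart. The fall of KDM1A itself differed by 0.37 ± 0.12 (adjusted p = 0.063).

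RAD51AP1 had the largest difference (1.02 ± 0.14, adjusted p = 0.00064). Its C42B levels, 10.10, 10.36 and 10.33 with siLSD1 and 10.65, 10.73 and 10.55 with siNTC, lay much closer together than the LNCaP levels given above. XRCC2 read 6.67, 7.03 and 6.96 in siLSD1 C42B arrays, against 6.62, 6.76 and 6.59 in siNTC arrays, and 6.90, 6.92 and 7.01 in siLSD1 LNCaP arrays, against 7.36, 7.89 and 7.92 in siNTC arrays. The C42B groups overlapped and the LNCaP groups did not, and the difference was 1.01 ± 0.19, adjusted p = 0.0044. The only probe set of XRCC2 is of a kind (x_at) that can also bind other transcripts. BRCA1 read 9.49, 9.56 and 9.57 with siLSD1 in C42B, against 9.82, 9.97 and 9.76 with siNTC, and its difference was 1.00 ± 0.10, adjusted p = 9.2e-05. BRIP1 differed by 0.96 ± 0.19, adjusted p = 0.0066. EXO1, CHEK1, BLM, FANCI, BARD1, RAD54L and FANCG differed by 0.60 to 0.93, and PRKDC, MSH6, FANCE, RAD51C, LIG1, MRE11 and XRCC5 by 0.25 to 0.47, all passing.

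FANCC went the other way. It read 8.42, 8.38 and 8.31 in siLSD1 C42B arrays, against 8.64, 8.66 and 8.65 in siNTC arrays, and 7.58, 7.46 and 7.45 in siLSD1 LNCaP arrays, against 7.54, 7.40 and 7.38 in siNTC arrays. The groups were separate in C42B and overlapped in LNCaP, and the difference was -0.34 ± 0.084, adjusted p = 0.021. This call was lost without siLSD1 replicate 3 in C42B, or without siLSD1 replicate 1 or siNTC replicate 2 or 3 in LNCaP (adjusted p 0.05 to 0.06). Of the positive differences, that of XRCC5 was lost for 10 of the 12 arrays, all but siNTC replicate 3 in C42B and siNTC replicate 1 in LNCaP (0.054 to 0.087). That of LIG1 was lost for 7, siLSD1 replicates 1 and 2 and siNTC replicate 1 in C42B and siLSD1 and siNTC replicates 2 and 3 in LNCaP (0.051 to 0.073). That of MRE11 was also lost for 7, siLSD1 replicates 2 and 3 and siNTC replicates 1 and 3 in C42B and siLSD1 replicate 1 and siNTC replicates 2 and 3 in LNCaP (0.051 to 0.071). The other 15 calls were kept whichever array was left out.

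**Figure D3:**
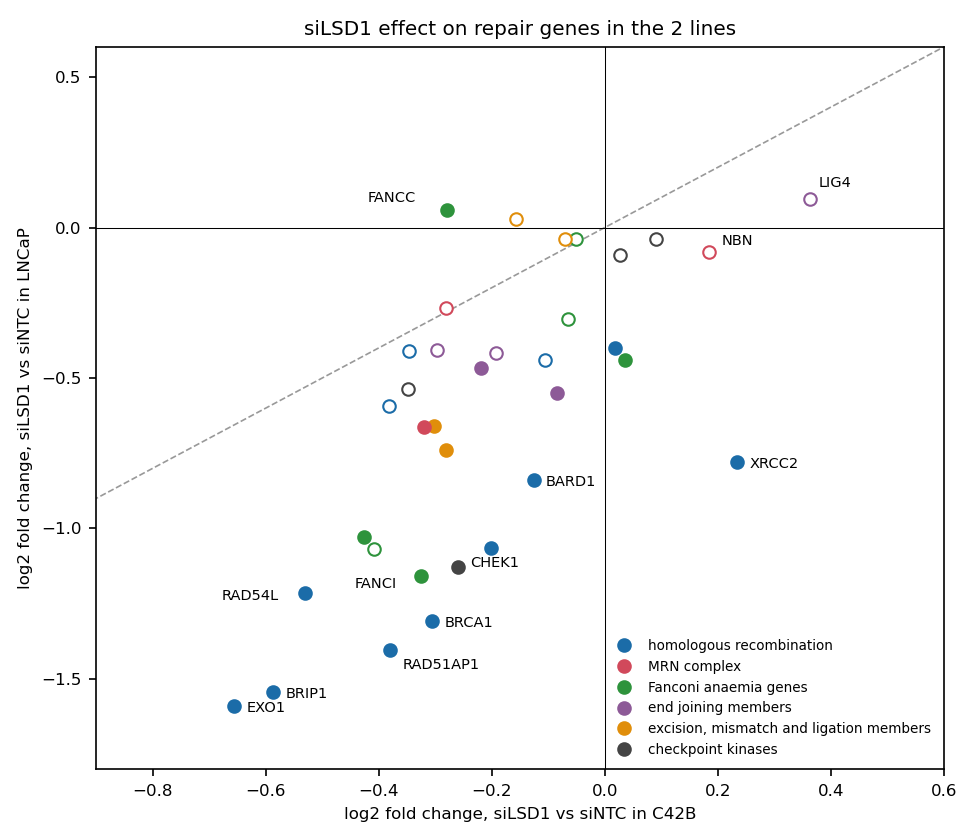
Log2 fold change with siLSD1 in C42B (x axis) against that in LNCaP (y axis) for the 35 genes, coloured by role. Filled points passed the test of the difference between the lines, and the dashed line marks equal effects. Of the 35 points 30 lie below the line, with FANCC the 1 filled point above it.

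DHT for 16 h in C42B cells moved repair genes in both directions. Of the 35, 5 passed as higher, 9 as lower and 21 did not pass, with a median change of -0.055, against 0.013 over all genes. Those counts are shares close to the background, since 13.4% of all genes passed as higher and 19.4% as lower, and 16.0% and 25.6% of genes bright in a group. The arrays were separate upward for 6 of the genes and downward for 12, where 14.0% and 20.6% of all genes were. The proliferation markers had 2 genes higher, 5 lower and a median of -0.022. KDM1A itself passed as higher with DHT (0.16 ± 0.043, adjusted p = 0.02), a call lost without vehicle replicate 4 (adjusted p = 0.057).

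BARD1 had the largest change with DHT. It read 12.02, 12.05, 12.04 and 12.08 in DHT arrays, against 13.11, 13.08, 13.01 and 13.12 in vehicle arrays. Every vehicle array lay far above every DHT array, and the change was -1.03 ± 0.040, adjusted p = 8.3e-08, in which the intensity fell by 51.1%. All 3 of its probe sets passed as lower, by 1.03 to 1.27. The next largest change among recombination genes was that of RAD54B, which read 9.72, 9.69, 9.65 and 9.63 with DHT, against 9.36, 9.52, 9.35 and 9.50 with vehicle (0.24 ± 0.052, adjusted p = 0.0063). BRCA1 (-0.16 ± 0.042, adjusted p = 0.018), BRIP1 (-0.21 ± 0.064, adjusted p = 0.031) and XRCC2 (-0.23 ± 0.051, adjusted p = 0.0074) passed as lower, with the BRIP1 arrays overlapping between the groups. BARD1 was thus lower with DHT in C42B and lower with siLSD1 in LNCaP, and its brightest probe set did not pass with siLSD1 in C42B. Its dimmest probe set, also bright, did pass there, with -0.30 (adjusted p = 0.045, limma fit of all 1-gene probe sets).

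XRCC5, the larger Ku subunit, rose with DHT. It read 12.81, 12.81, 12.83 and 12.82 with DHT, against 12.50, 12.53, 12.53 and 12.52 with vehicle (0.30 ± 0.035, adjusted p = 0.00012), a small change between groups whose SDs were 0.011 and 0.016. XRCC6, its partner in the ring, changed by -0.010 ± 0.037 and did not pass. LIG4 read 8.26, 8.32, 8.18 and 8.41 with DHT, against 7.95, 8.08, 8.03 and 8.13 with vehicle (0.25 ± 0.062, adjusted p = 0.013). PRKDC, which Ku recruits, read 11.56, 11.61, 11.58 and 11.76 with DHT, against 11.84, 11.86, 11.87 and 12.02 with vehicle, and thus fell (-0.27 ± 0.059, adjusted p = 0.0062). The end joining genes therefore held 2 rises and 1 fall, each with groups that did not overlap.

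FANCL read 8.76, 8.73, 8.70 and 8.74 with DHT, against 8.94, 9.08, 9.01 and 9.06 with vehicle (-0.29 ± 0.043, adjusted p = 0.00063), and FANCF also fell (-0.22 ± 0.052, adjusted p = 0.0095). The other 5 Fanconi genes did not pass. NBN (-0.23 ± 0.039, adjusted p = 0.0015) and MRE11 (-0.19 ± 0.050, adjusted p = 0.016) fell, and RAD50 did not pass (-0.10). MSH6 read 10.41, 10.44, 10.39 and 10.35 with DHT, against 10.18, 10.30, 10.24 and 10.27 with vehicle (0.15 ± 0.042, adjusted p = 0.023). PARP1 read 11.65, 11.70, 11.70 and 11.71 with DHT, against 11.55, 11.47, 11.56 and 11.37 with vehicle (0.20 ± 0.050, adjusted p = 0.014). Vehicle replicate 4 was the lowest PARP1 array, and no vehicle array reached the DHT range. LIG1, LIG3 and the 4 checkpoint kinases did not pass, with changes of -0.22 for ATM to 0.074 for LIG3. BRIP1 lost its call without DHT replicate 3 or 4 or vehicle replicate 2, 3 or 4 (adjusted p 0.062 to 0.076). MSH6 lost it without DHT replicate 1 or 2 or vehicle replicate 1 or 3 (0.053 to 0.063), and BRCA1 without vehicle replicate 3 (0.06).

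**Figure D4:**
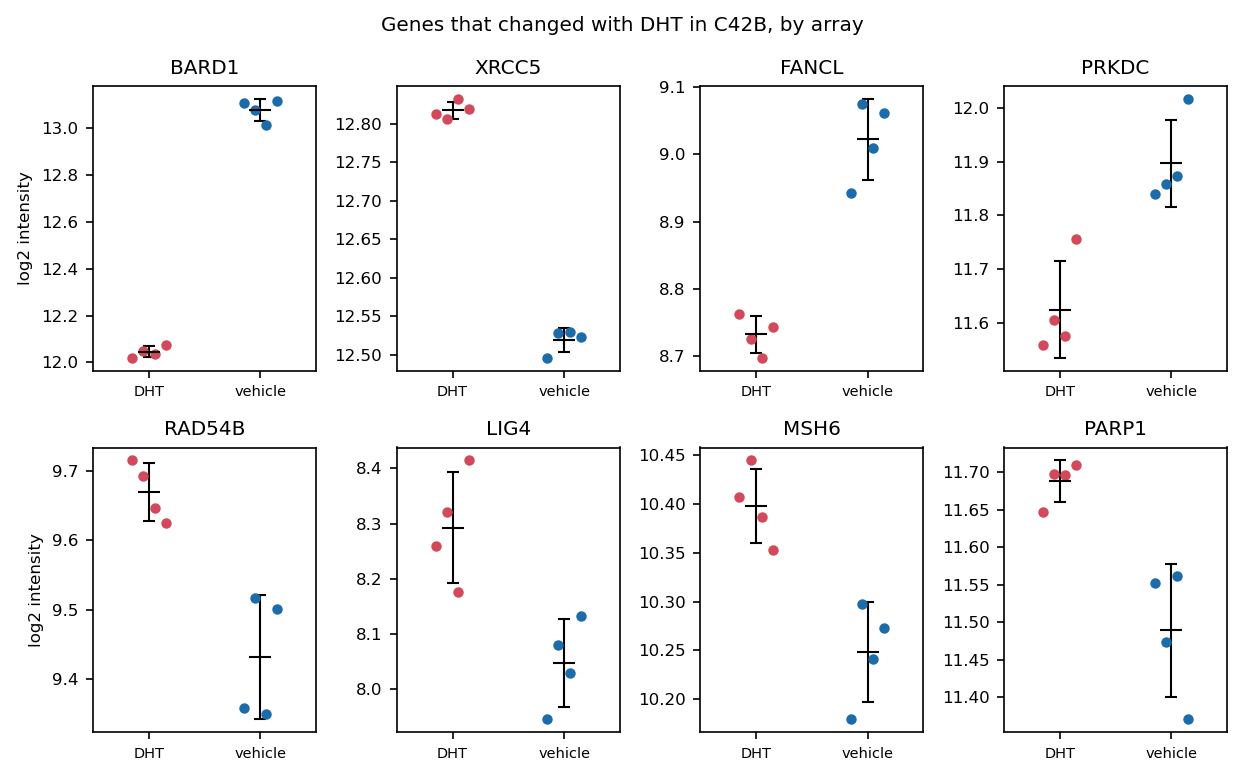
Log2 intensity (y axis, a separate range for each gene) of BARD1, XRCC5, FANCL, PRKDC, RAD54B, LIG4, MSH6 and PARP1 in every DHT (red) and vehicle (blue) array of C42B, with the mean and SD of 4 arrays in black. DHT arrays lie below vehicle arrays for BARD1, FANCL and PRKDC and above them for the other genes, and the BARD1 panel spans the widest range.

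Across the 3 comparisons, which share no arrays, the genes fell into 10 patterns of calls. The most common, in 14 genes, was lower with siLSD1 in both lines with no call for DHT, a pattern held by 3.36% of all genes. BRCA1, BRIP1 and MRE11 were lower in all 3 comparisons, as were 1.45% of all genes. The DHT calls of BRCA1 and MRE11 were lost with the mean of all probe sets and with the second brightest. That second probe set of BRCA1 is bright and changed by -0.008 with DHT (adjusted p = 0.94, limma fit of all 1-gene probe sets). RAD54B, XRCC5 and MSH6 were lower with siLSD1 in both lines and higher with DHT, as were 0.839% of all genes. Since the calls with DHT came at shares close to the background, nothing is read from how they divide the genes lower in both lines. LIG3, ATM and ATR passed in none, as did 51.1% of all genes. The changes with DHT had a correlation of -0.094 with those of siLSD1 in C42B and of 0.12 with those in LNCaP across the 35 genes, as a description.

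Other probe sets of the same genes gave a check on these calls. Of the genes, 17 had more than 1 bright probe set. All bright probe sets of a gene gave the same call for 9 of the 17 with siLSD1 in C42B, for 12 in LNCaP and for 12 with DHT. In none of these comparisons did 2 of them pass in opposite directions, and the difference between lines was not part of this count. CHEK1 was the most divided. With siLSD1 in LNCaP its brightest probe set averaged 7.52 ± 0.028 in siLSD1 arrays, against 8.64 ± 0.21 in siNTC arrays (SD, n = 3), and in a fit of all 1-gene probe sets 2 others also fell, with changes of -1.03 (adjusted p = 9.5e-05) and -1.13 (adjusted p = 5.0e-05). The third brightest averaged 8.20 ± 0.046 with siLSD1, against 8.07 ± 0.027 with siNTC, a change of 0.13 (adjusted p = 0.18). That probe set alone passed with DHT, where it ranged from 7.95 to 8.06 over the 4 DHT arrays, against from 8.43 to 8.47 over the 4 vehicle arrays, a change of -0.45 (adjusted p = 4.6e-05). For the difference between lines, the CHEK1 probe sets passed in opposite directions in the same fit. The third brightest was lower (-0.31, adjusted p = 0.042), while the brightest and the 2 others were higher (0.87, 0.78 and 0.82, adjusted p = 0.0012, 0.0041 and 0.0011).

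NBN had 4 bright probe sets. In C42B with siLSD1 they changed by 0.056 to 0.38. In the fit of all 1-gene probe sets the brightest missed the threshold there, with a change of 0.18 (adjusted p = 0.061), and the second brightest passed, with 0.38 (adjusted p = 0.047). The 4 changed in LNCaP by -0.61 to -0.08, where 2 of the 4 passed as lower. The second brightest, an x_at probe set, averaged 9.70 ± 0.072 with siLSD1 in LNCaP, against 10.28 ± 0.29 with siNTC (SD, n = 3). XRCC5 had 2 bright probe sets that parted with siLSD1 and not with DHT. The second averaged 11.45 ± 0.054 in siLSD1 C42B arrays, against 11.40 ± 0.0064 in siNTC arrays, and 11.52 ± 0.049 in siLSD1 LNCaP arrays, against 11.46 ± 0.043 in siNTC arrays, and passed in neither, with changes of 0.049 (adjusted p = 0.63) and 0.062 (adjusted p = 0.56). With DHT it rose by 0.33 (adjusted p = 0.00029), close to the brightest probe set. The calls of PRKDC also turn on the probe set. Its second bright probe set fell with siLSD1 in C42B, with a change of -0.37 (adjusted p = 0.0061), and in LNCaP, with -0.58 (adjusted p = 0.0011). It did not pass for the difference between lines, at 0.20 (adjusted p = 0.24), or with DHT, at -0.11 (adjusted p = 0.22). The calls of FANCF turn on the probe set as well. Its second bright probe set fell with siLSD1 in LNCaP, with a change of -0.34 (adjusted p = 0.004). The same probe set did not pass with siLSD1 in C42B, at -0.21 (adjusted p = 0.073), or with DHT, at -0.049 (adjusted p = 0.49). The brightest probe sets of LIG3 and XRCC4 are also of the x_at kind.

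Repair genes outside the 35, taken from a list of 96 of which 86 were measured, were counted in the same way. With siLSD1 in C42B 32 fell and 0 rose (median -0.15, with 1 higher at limma's unadjusted p under 0.05), where 9.39% of all genes fell and 8.66% rose. In LNCaP 43 fell and 7 rose (median -0.30), where 12.5% of all genes fell and 13.4% rose. With DHT 21 fell and 9 rose (median -0.075), shares near the 19.4% and 13.4% of all genes, which also fell more often than they rose. The list had 27 measured genes of recombination and replication fork repair, of which 11 fell in C42B and 16 in LNCaP, and 19 of checkpoint and damage signalling, of which 8 and 12 fell. Of 16 base excision genes 6 fell in C42B and 8 in LNCaP. Nucleotide excision, mismatch, end joining and direct reversal genes had 13, 3, 5 and 3 measured members, and nothing is read from their counts. In C42B 4, 0, 0 and 3 of them fell (of the mismatch and end joining genes 1 each was lower at limma's unadjusted p under 0.05), and in LNCaP 3, 1, 1 and 2. Of the 7 genes that rose in LNCaP, 3 were of nucleotide excision and 2 of base excision. Recombination and replication fork repair and checkpoint and damage signalling held 1 each.

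The largest changes among these genes in C42B were those of CDC25C, the phosphatase that frees CDK1 for mitosis, and NEIL3, a base excision glycosylase. CDC25C read 8.50, 8.54 and 8.49 with siLSD1, against 9.07, 9.06 and 9.18 with siNTC (-0.60 ± 0.054, adjusted p = 0.0007), and NEIL3 read 7.71, 7.77 and 7.76 with siLSD1, against 8.50, 8.26 and 8.26 with siNTC (-0.60 ± 0.075, adjusted p = 0.0023). In LNCaP FEN1, the nuclease that trims flaps left by replication and base excision repair, read 9.98, 9.89 and 9.85 with siLSD1, against 11.34, 11.41 and 11.29 with siNTC (-1.44 ± 0.064, adjusted p = 7.2e-06), and NEIL3 read 6.83, 7.19 and 7.21 with siLSD1, against 8.42, 8.56 and 8.46 with siNTC (-1.40 ± 0.10, adjusted p = 4.7e-05). With DHT the largest were DDB2, a sensor of ultraviolet damage, and FIGNL1, an ATPase of homologous recombination. DDB2 read 8.39, 8.37, 8.22 and 8.28 with DHT, against 8.97, 9.17, 9.10 and 9.11 with vehicle (-0.77 ± 0.057, adjusted p = 6.0e-06), and FIGNL1 read 11.41, 11.43, 11.42 and 11.46 with DHT, against 11.96, 11.99, 12.05 and 12.01 with vehicle (-0.57 ± 0.038, adjusted p = 3.1e-06). The arrays of the 2 groups did not overlap for any of these 5 genes in the comparison named.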

How the data were processed

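Affymetrix 3′ arrays with 54675 probe sets were used for 20 RNA samples. The deposited values are intensities on a linear scale. Per the submitters' processing notes they come from RMA (affy), with versions not given in the sources used here. Such normalization works on the arrays processed together and can hide a shift of all genes. The labels name labelling kits without assigning them to samples, so kit could not be a term.

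Log2 was taken of each intensity. The annotation named 1 gene for 41091 probe sets, several for 1801 and none for 11721, and 62 were controls. Old symbols were updated by gene ID. Each of 19775 genes was read from its brightest 1-gene probe set (mean of 20 arrays), with no filter on dim genes. Each comparison was fitted on its own arrays in R 4.3.3 by limma 3.58.1 (lmFit, eBayes), two-sided and without covariates, and the difference between lines on the 12 siRNA arrays. The fit was also run on simulated data with independent noise, which checks the calculation only. No 2 arrays were identical. Tables and figures used Python 3.11.15, pandas 2.3.3, scipy 1.17.1 and matplotlib 3.10.9.

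The genes and lists were chosen with earlier results of these data known. Named with values in every array were the 6 largest passing changes per siRNA comparison, the 4 largest with DHT and between lines, any gene passing against the majority, and 2 other repair genes per comparison. The 3 genes whose probe sets disagreed most were named with means or ranges of those probe sets. LIG4 in C42B was added after its values were seen. Alternatives were other probe set choices, a brightness filter, quantile normalization, eBayes with trend and robust, 1 fit of 20 arrays, a replicate block and leaving out each array.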

Additional observations from a re-analysis of the deposited data

Results flagged for a closer look

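In 3 of the 70 groups of 4 arrays examined (35 genes with DHT or vehicle), 1 array lay far from the other 3 by Dixon's test, which chance does for about 1 group in 20. FANCC in vehicle replicate 3 was 8.90, where the other vehicle arrays lay at 8.70 to 8.72. XRCC6 in vehicle replicate 4 was 13.11, where the others lay at 13.17 to 13.18, and CHEK1 in vehicle replicate 4 was 9.57, where the others lay at 9.52 to 9.53. FANCC, XRCC6 and CHEK1 had no call with DHT.

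The siLSD1 effect differed between the lines, by a test of the difference itself, for 19 of the 35 genes. C42B minus LNCaP, on the log2 scale, was positive for BRCA1 (1.00), BARD1 (0.71), BRIP1 (0.96), RAD51C (0.42), RAD51AP1 (1.02), RAD54L (0.69), XRCC2 (1.01), BLM (0.86), EXO1 (0.93), MRE11 (0.34), FANCE (0.47), FANCG (0.60), FANCI (0.83), XRCC5 (0.25), PRKDC (0.47), MSH6 (0.46), LIG1 (0.36) and CHEK1 (0.87), and negative for FANCC (-0.34).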

How the results depend on the processing

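The 27 falls with siLSD1 in LNCaP stayed at 25 to 27 under every alternative, and the rises stayed at 0. The 14 genes with only 1 probe set keep the same values with the mean of all probe sets and with the second brightest. For these genes the probe set alternatives are no check. The 18 positive differences between lines stayed at 15 to 21. In C42B the 21 falls became 13 with the second brightest probe set and 14 to 18 when 1 array was left out. The 1 rise, NBN, became 0 with the mean of all probe sets, with the second brightest and with quantile normalization, and 2 with the brightness filter and with trend and robust, where LIG4 was added. With all 20 arrays in 1 fit the 1 rise was LIG4. Leaving out 1 array gave 0 to 2 rises. With DHT the 9 falls became 13 with trend and robust, 12 with the brightness filter, 11 with quantile normalization, 8 with the mean of all probe sets and in 1 fit, 4 with the second brightest and 8 to 9 without 1 array. The 5 rises became 6 with the brightness filter, 4 with the mean of all probe sets and 4 to 5 without 1 array. The 1 negative difference, FANCC, became 0 with the mean of all probe sets and with the second brightest, and 0 to 2 without 1 array. The second brightest probe set also reversed the sign of MRE11 (0.031) and XRCC5 (0.049) in C42B, of RAD50 (0.044), XRCC5 (0.062) and XRCC6 (0.0088) in LNCaP, of NBN with DHT (0.017), and of the differences of FANCC (0.0036) and XRCC5 (-0.013), and none of these values passed. The cause was not tested, except that the second probe sets of MRE11, XRCC6 and FANCC are dim. Of 2097 values of single genes under the alternatives, 1912 kept their direction and side of the threshold, 133 lost a call, 44 gained one and 8 reversed. Same-numbered arrays of the 2 groups correlated at -0.096 to 0.20 around their group means, and the closest match had the same number for only some arrays. Correlations this weak over so few arrays cannot settle whether the numbers pair the arrays. With a replicate block the C42B counts were 0 rises and 17 falls, those in LNCaP 0 and 27, those with DHT 5 and 11, and the differences 16 positive and 1 negative. Dim probe sets such as that of FANCB limit what small changes can be seen.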
